A study of Mus musculus with 6 samples.

Results

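The cytosolic ribosomal protein genes are the nuclear genes for the protein parts of the ribosome that works in the cytoplasm. They were taken as every line of the deposited count table whose symbol is Rpl or Rps with a number and at most 1 closing letter (a, x, y or l), or is Rplp0, Rplp1, Rplp2 or Rpsa. The rule found 81 of the 45808 gene lines, 49 for the large and 32 for the small subunit. Of these, 78 had enough reads to be tested. Rps4l is annotated as a transcribed processed pseudogene and was kept because its symbol fits the rule. Rps3a1, which also encodes a ribosomal protein, is not caught by it and is described with the related genes.

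The ribosome is built from ribosomal RNA and a single copy of most of these proteins, so their genes are known for being expressed at similar and high levels in all cells. In mammals their mRNAs start with a stretch of pyrimidines, the terminal oligopyrimidine or TOP motif, through which the kinase complex mTORC1 and the protein Larp1 control their translation. Ribosome making starts with RNA polymerase I in the nucleolus, rises when cells grow or divide, and is driven in many cells by the transcription factor Myc.

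The libraries came from cultures of stromal-vascular cells, the fraction of fat tissue that holds adipocyte precursors, which was taken from inguinal white fat. The donors were male mice aged 8 weeks, labelled WT, wild type. Day 0 was the confluent culture with no induction. Day 2 followed 2 days in a medium with IBMX (0.5 mM), dexamethasone (5 µM), indomethacin (125 µM), insulin (850 nM), T3 (1 nM) and rosiglitazone (1 µM), and day 6 followed the change to a maintenance medium with insulin, T3 and rosiglitazone alone at those doses. Each day had 2 libraries, numbered 76 and 77, with 22522221 to 29458374 counts in genes. These cultures are mixtures of cells, and no purification beyond the stromal-vascular preparation is described in the labels.

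Levels are given as CPM, the count of a gene relative to the TMM-scaled total of its library, and n = 2 libraries per day for every mean and test. A gene is said to rise, fall or be called where edgeR's quasi-likelihood test gave an adjusted p under 0.05 over the 14459 genes tested. Every value is relative to the other polyadenylated RNA of the library. In bulk samples of this kind, fewer cells of a type and less RNA per cell cannot be told apart.

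Stretches around the transcription start of 8 members are shown because the TOP motif lies at the start of the mRNA. They are the 4 with the lowest and the 4 with the highest change of day 6 against day 2 among the members with a window in the RefSeq promoter table (GRCm38.p6), which holds 72 windows for 60 of the 81 members. Each runs 5′ to 3′ on the gene's own strand from 25 bases before the annotated start through the first 25 bases after it. Capitals mark the longest run of pyrimidines where it has 5 or more bases, and the first such run where lengths tie, as in Rps27l, whose next run is as long. A marked run is not by itself a TOP motif. Those of Rps27l and Rpl39l begin 22 and 25 bases before the annotated start and also end before it. The first 4 are those with the lowest change.
Rplp0 (chr5:115559442-115559491, plus): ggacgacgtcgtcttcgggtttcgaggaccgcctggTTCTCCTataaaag
Rps12 (chr10:23787185-23787234, minus): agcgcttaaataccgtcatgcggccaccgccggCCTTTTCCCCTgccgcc
Rpl12 (chr2:32961687-32961736, plus): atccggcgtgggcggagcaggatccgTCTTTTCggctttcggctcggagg
Rpl36a (chrX:134585629-134585678, plus): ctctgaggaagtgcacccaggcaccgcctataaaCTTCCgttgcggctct
Rpl9 (chr5:65391407-65391456, minus): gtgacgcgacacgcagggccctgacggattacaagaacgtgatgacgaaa
Rplp2 (chr7:141447626-141447675, plus): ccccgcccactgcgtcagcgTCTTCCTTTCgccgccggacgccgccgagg
Rps27l (chr9:66946061-66946110, plus): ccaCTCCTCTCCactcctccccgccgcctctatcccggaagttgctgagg
Rpl39l (chr16:10170203-10170252, plus): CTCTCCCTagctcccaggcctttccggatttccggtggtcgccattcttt

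A run of at least 8 pyrimidines lay within 25 bases of the annotated start, on either side of it, in 45.8% of the members' windows. The same held for 19.7% of all 32851 windows of the table. The ETS core CCGGAAGT, on either strand of the whole window of 300 bases, was found in 16.7% of the members' windows and 3.89% of all. The YY1 core AAGATGGC, searched the same way, was found in 9.72% and 2.75%. When the tested members with a window were ordered by their change of day 6 against day 2, a pyrimidine run was found in 14 of the 28 in the lower part and in 15 of the 29 in the upper part. The ETS core was found in 3 members of the lower part and 9 of the upper, and the YY1 core in 3 and 1. Annotated starts can lie away from the starts used in these cells: that of Rplp2 was 281 bases from the 5′ end of the gene in GENCODE, and that of Rpl12 was 153 bases from it.

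The members together took 4.65% and 4.47% of the gene counts in day 0 libraries, 6.41% and 5.99% in day 2 libraries and 2.14% and 2.42% in day 6 libraries. No day overlapped another. The same holds gene by gene for most members: both day 2 libraries lay above both day 0 libraries in 74 members and below them in 1, beside 43.2% and 42.9% of all genes tested. Both day 6 libraries lay below both day 0 libraries in 72 and above them in 2, beside 43.8% and 43.1%, and below both day 2 libraries in 76 and above them in 1, beside 35.4% and 47%. The share averaged 6.20% ± 0.300 at day 2, against 4.56% ± 0.129 at day 0 (SD), a ratio of 1.36. At day 6 it averaged 2.28% ± 0.197, a ratio of 0.367 to day 2 and 0.50 to day 0. A two-sided exact permutation test of 2 against 2 libraries gave p = 0.33 for each pair of days, the smallest p this design can give.

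**Figure D1:**
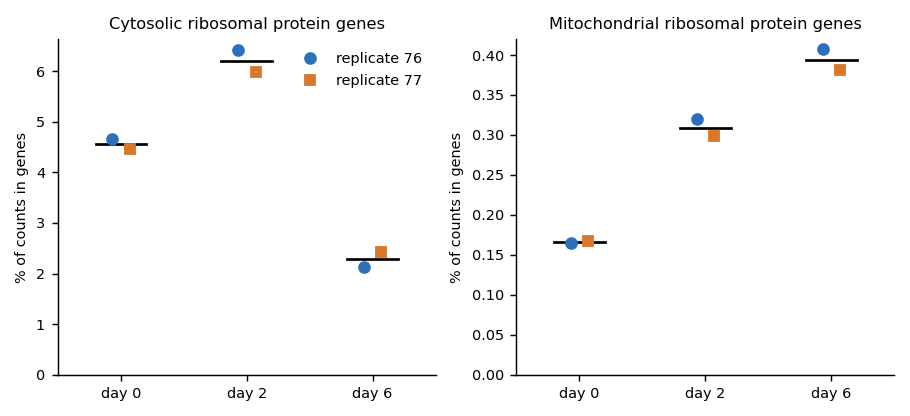
Share of gene counts, in percent, held by the 81 cytosolic ribosomal protein genes (left) and by the 77 mitochondrial ribosomal protein genes (right) on days 0, 2 and 6. Points are libraries and bars are means of 2; the cytosolic share was 6.41% and 5.99% at day 2 and 2.14% and 2.42% at day 6, while the mitochondrial share was highest at day 6, with 0.407% and 0.381%.

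With TMM scaling the summed level was 45372 and 43073 CPM at day 0, 57330.2 and 53985 CPM at day 2 and 25206 and 27159 CPM at day 6. The order of the days was the same, and the step of day 6 against day 0 was smaller than in the shares, with a ratio of 0.592. The TMM factors themselves ran with the day, at 1.03 and 1.04 for day 0, 1.12 and 1.11 for day 2 and 0.849 and 0.891 for day 6.

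By day 2 the ribosomal protein genes had risen modestly and widely. Of the 78 tested, 58 rose and 1, Rps4l, fell, while 33.6% of all genes tested were called higher and 33.6% lower (67.1% in either direction). The median log2 change was 0.33, a fold of 1.26, against 0.00424 over all genes. The size of the step was small: 6 of the called members changed by more than 1.5-fold and none by more than 2-fold. Of all genes tested, 12.3% were called higher and 17.9% lower by more than 2-fold. The share of all genes past 1.5-fold was not counted. The number of members that passed the test depended on the libraries kept. Leaving out a library of day 0 or day 2 lowered the calls among all genes in this comparison. That loss was a smaller part of the calls than the largest loss among the members. With 1 library left out the median log2 change of the members was 0.30 to 0.44.

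By day 6 they had fallen below the day 0 level. Against day 0, 71 members fell and 2, Rpl39l and Rps27l, rose, while 35.1% of all genes were called lower and 35.9% higher (70.9% in either direction). The median log2 change was −0.73, a fold of 1.66, against −0.01 over all genes. Against day 2, 75 fell and 1, Rps4l, rose, while 27.5% of all genes were called lower and 38.2% higher (65.7% in either direction). The median was −1.04, against 0.12 over all genes, and 46 of the members fell more than 2-fold, as did 10.4% of all genes.

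With library totals alone as the scaling, the median change of the members was 0.44 for day 2 against day 0, −0.98 for day 6 against day 0 and −1.39 for day 6 against day 2. The same scaling moved the median of all genes to 0.12, −0.26 and −0.23. It also moved the split of all calls for day 6 against day 0 to 3967 higher and 6476 lower, against 5184 and 5069 with TMM, and for day 6 against day 2 to 3650 and 6182, against 5520 and 3981. Relative to the median of all genes, the members' median for day 6 was below it in both comparisons under either scaling.

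In 69 of the 78 tested members both day 2 libraries lay above both day 0 libraries, which lay above both day 6 libraries, a pattern found in 9.83% of all genes tested. For 53 members both steps passed the test, the rise at day 2 and the fall at day 6 against day 0. The share of all genes with both calls was not counted, and the 9.83% is for the pattern without overlap only. Taken singly, 33.6% of all genes were called higher at day 2 and 35.1% lower at day 6. The 2 comparisons share the day 0 libraries.

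**Figure D2:**
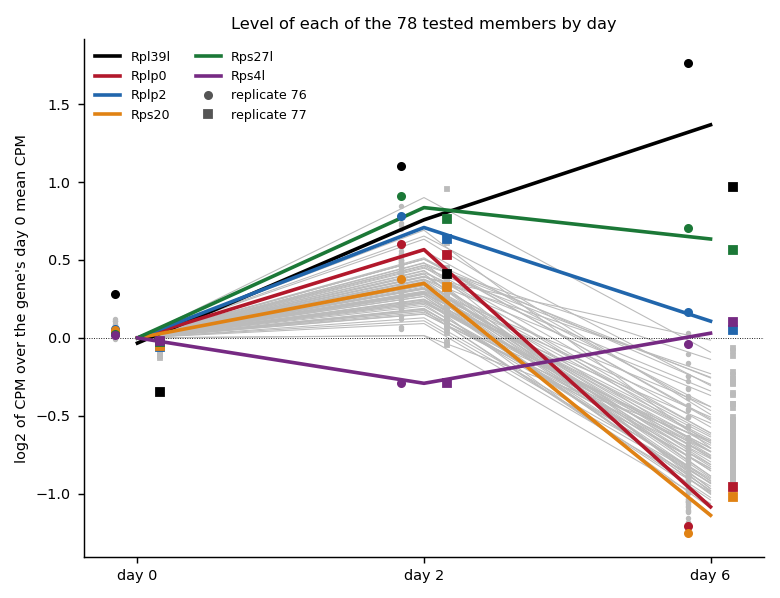
Log2 of each tested member's CPM over its mean CPM at day 0, for days 0, 2 and 6. Points are libraries (circles 76, squares 77), lines join the mean of each day's 2 values, grey marks members not named in the legend; most lie above 0 at day 2 and below it at day 6, while Rpl39l and Rps27l lie above 0 in both libraries of day 6.

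Both subunits took part in both steps. Of 46 tested large subunit genes, 32 rose at day 2 against day 0, 41 fell and 1 rose at day 6 against day 0, and 45 fell at day 6 against day 2. Of 32 small subunit genes, 26 rose and 1 fell, 30 fell and 1 rose, and 30 fell and 1 rose in the same comparisons. The summed level of the large subunit over that of the small was 1.38 and 1.40 for day 0, 1.39 and 1.40 for day 2 and 1.44 for each library of day 6. Day 6 lay above the other days by a small margin.

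The most abundant messages for their length were compared as RPKM, the CPM per kilobase of reference transcript. The order depends on the transcript chosen, whose length ran from 271 bases for Rps28 to 3706 bases for Rps20. Other choices of transcript were not tested. Rplp1, an acidic protein of the stalk that calls elongation factors to the large subunit, led at day 0 with 2595 ± 74.3 RPKM. Rps2, a small subunit protein at the entry of the mRNA channel, had 1736 ± 31.4 RPKM, and Rps14, a protein of the small subunit platform, had 1567 ± 46.8 RPKM. Rplp0, the base of the stalk, had 1560.0 ± 62.1 RPKM, and Rpl41, a very short large subunit protein, had 1473 ± 104 RPKM. Rps14, Rplp0 and Rpl41, neighbours in this order, differed by less than their spread. At day 6 Rplp1 still led these 5 with 1329 ± 85.9 RPKM, and Rpl41 came next with 1236 ± 11.3 RPKM.

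The stalk of the large subunit held both the strongest fall and one of the weakest. Rplp0 (chr5:115559467-115563727, plus strand, GRCm38, as all coordinates here) had 2178 and 2059 CPM at day 0, 3217 and 3058 CPM at day 2 and 916 and 1089.8 CPM at day 6. No day overlapped another, and Rplp0 had the largest fall of all members from day 2, 3.13-fold (log2 change −1.65, SE 0.12, adjusted p = 6.18e-06 by edgeR).

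Rplp1 had 1321 and 1269 CPM at day 0, 1818 and 1681 CPM at day 2 and 633 and 693 CPM at day 6. Its 3 days were also apart, with a rise of 1.35-fold at day 2 against day 0 and a fall of 2.64-fold at day 6 against day 2 (log2 change −1.40, SE 0.10, edgeR adjusted p = 5.67e-06). Rpl12, which binds at the base of the stalk, had 339.8 and 392 CPM at day 6, against 1028 and 989.9 CPM at day 2 and 819.7 and 777 CPM at day 0.

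Rplp2 (chr7:141447370-141451585, plus strand) forms heterodimers with Rplp1 on the stalk. It had 408 and 377 CPM at day 0, 674 and 609 CPM at day 2 and 439.6 and 406 CPM at day 6. The day 6 and day 0 libraries overlapped, so Rplp2, unlike its partner, was not called between them (log2 change 0.11, SE 0.09, edgeR adjusted p = 0.318). With library totals alone the sign of this small change turned, to −0.14. The ratio of Rplp2 to Rplp1 counts was 0.309 and 0.297 in day 0 libraries, 0.371 and 0.362 in day 2 libraries and 0.695 and 0.586 in day 6 libraries, with no overlap between days. Part of the 50-base words of both reference transcripts also occurs in transcripts of other genes, 60.0% for Rplp1 and 65.1% for Rplp2, and what this does to the ratio was not tested.

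Among the small subunit genes, Rps20 (chr4:3831334-3835665, minus strand), a protein of the subunit's head, fell most. It had 624 and 582 CPM at day 0, 783 and 755 CPM at day 2 and 253 and 297 CPM at day 6, with no overlap between days. The fall was 2.20-fold against day 0 (log2 change −1.13, SE 0.10, edgeR adjusted p = 1.71e-05) and 2.80-fold against day 2. Rps12, a protein of the subunit's beak, had 274 and 313 CPM at day 6, against 843 and 783 CPM at day 2, a fall of 2.77-fold.

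Rps14 had a different pattern, with no call at day 2. It had 955 and 916 CPM at day 0, 982 and 907 CPM at day 2 and 434 and 462 CPM at day 6. The day 2 and day 0 libraries overlapped (log2 change 0.01, SE 0.09, edgeR adjusted p = 0.897), and the fall at day 6 against day 0 was 2.09-fold.

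The largest rises at day 2 were those of Rpl23a, Rps27l, Rplp2, Rpl36a and Rpl7a. Rpl23a, which sits at the tunnel exit where nascent chains leave, had 39.0 and 41.9 CPM at day 2, against 23.1 and 20.3 CPM at day 0 (1.86-fold, log2 change 0.90, SE 0.09, edgeR adjusted p = 4.56e-05). Its level was low for the group, its exons overlap another gene over 62.3% of their length and 85.7% of the 50-base words of its reference transcript occur elsewhere, so its reads may be split with other loci by the counting. Rpl36a had 428 and 401 CPM at day 2, against 269 and 244 CPM at day 0. Rpl7a had 802 and 751 CPM at day 2, against 501 and 485 CPM at day 0. In each of these the day 2 libraries lay above both day 0 libraries. Of the 50-base words of the reference transcript, 85.5% occur elsewhere for Rpl36a and 81.2% for Rpl7a.

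**Figure D3:**
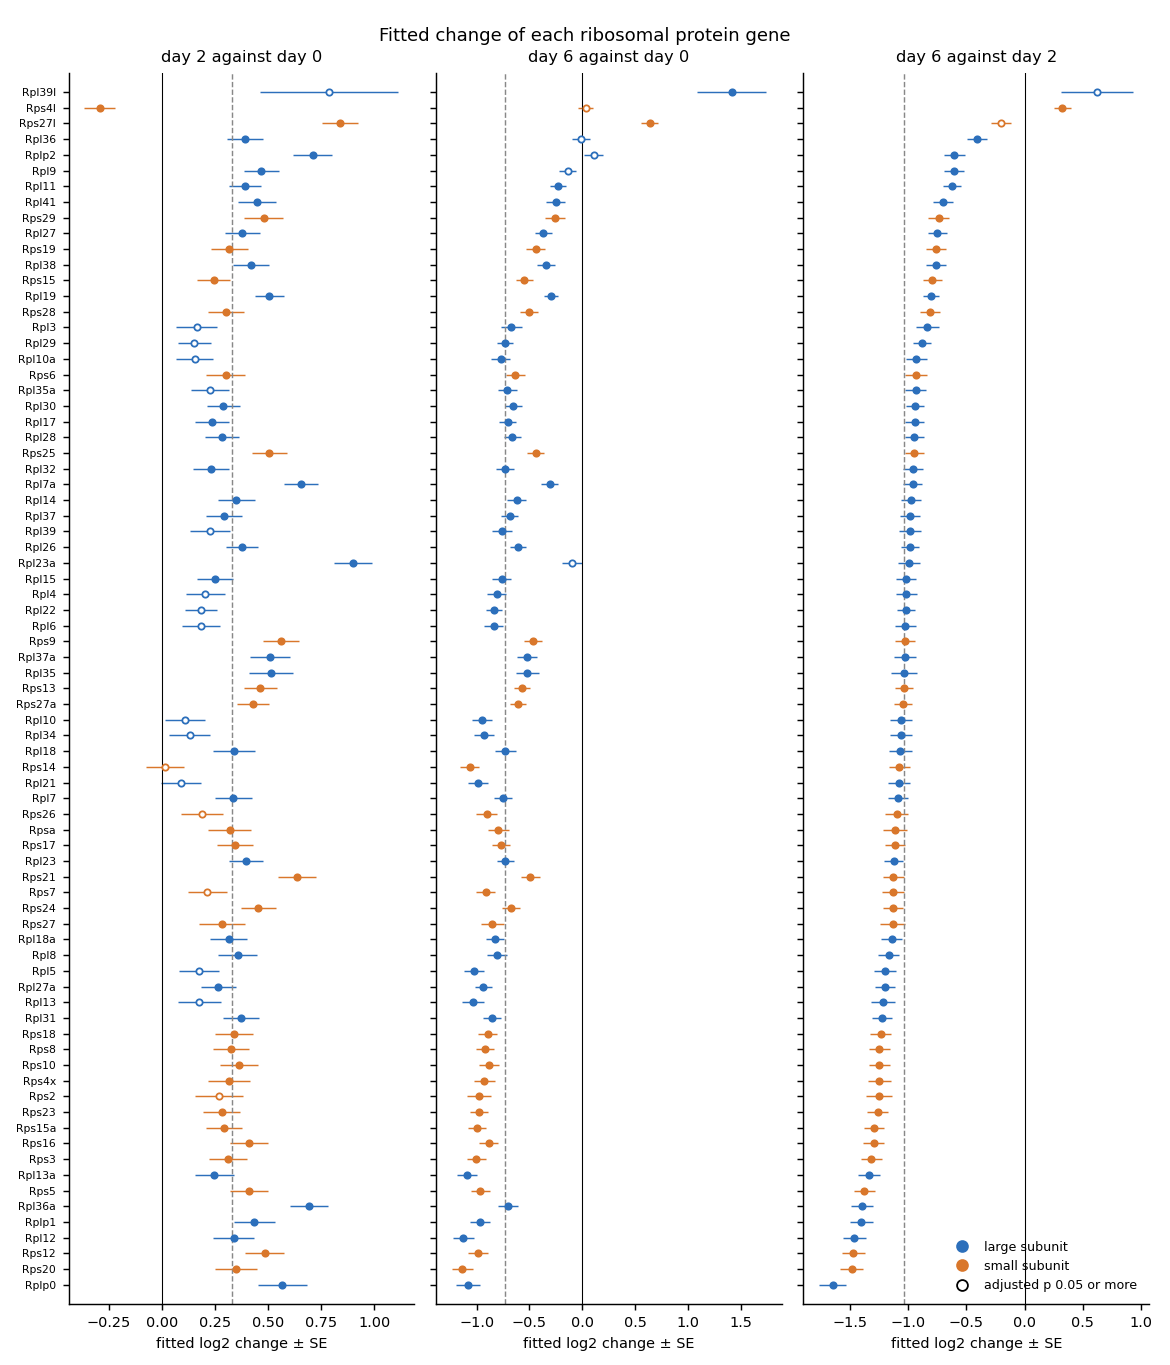
Fitted log2 change ± SE of 77 of the 78 tested members in the 3 comparisons, ordered by day 6 against day 2, with large subunit genes in blue and small subunit genes in orange. Open circles did not reach an adjusted p under 0.05 and dashed lines mark the median of all 78, 0.33, −0.73 and −1.04 from left to right.

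Rpl5 and Rpl11 bind 5S ribosomal RNA together and can hold the p53 regulator Mdm2, and both were called lower at day 6 than at day 0. Rpl5 had 339 and 387 CPM at day 6, against 756 and 719 CPM at day 0, a fall of 2.03-fold. Rpl11 had 395 and 402 CPM at day 6, against 464 and 471 CPM at day 0, a fall of 1.17-fold (log2 change −0.23, SE 0.08, edgeR adjusted p = 0.0236). This call was lost with the libraries of both days alone and without replicate 76 or 77 of day 0 or of day 2 (adjusted p up to 0.143). Relative to the members' sum Rpl5 fell by 0.27 (edgeR adjusted p = 0.0447, or 0.0569 once replicate numbers entered as a block) and Rpl11 rose by 0.53 (edgeR adjusted p = 0.000755). The pair was chosen for description after its values were seen.

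Rps6, the small subunit protein that S6 kinases phosphorylate, had 724 and 695 CPM at day 0, 875 and 871 CPM at day 2 and 429.7 and 485 CPM at day 6, and its days did not overlap. Rpl36 had 267 and 249.8 CPM at day 6, which overlapped its 268 and 253 CPM at day 0 (log2 change −0.01, edgeR adjusted p = 0.894). Both are likewise given with their values known.

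The paralogs, genes for close relatives of a member, had other time courses than their partners. Rps27l (chr9:66946086-66949516, plus strand), which is induced by p53 in human cells, had 95.5 and 92.2 CPM at day 0, 176 and 159 CPM at day 2 and 153 and 139 CPM at day 6. Both later days lay above day 0, and Rps27l rose 1.55-fold at day 6 against day 0 (log2 change 0.64, SE 0.08, edgeR adjusted p = 0.00018), while Rps27 fell 1.80-fold. Its log2 change at day 6 against day 2 was −0.20 (edgeR adjusted p = 0.0601, or 0.0302 once replicate numbers entered as a block). The ratio of Rps27l to Rps27 counts was 0.189 and 0.214 in day 0 libraries, 0.288 and 0.303 in day 2 libraries and 0.597 and 0.527 in day 6 libraries. Of the 50-base words of the Rps27 transcript 98.6% occur elsewhere, and of those of Rps27l 22.4%, and what this does to the ratio was not tested.

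Rpl39l (chr16:10170226-10174911, plus strand), a relative of Rpl39 that is known in the mouse for its use in male germ cells, was the least abundant tested member at day 0. It had 10.1 and 6.55 CPM at day 0, 17.9 and 11.1 CPM at day 2 and 28.3 and 16.3 CPM at day 6. Day 6 lay above day 0 without overlap, a rise of 2.66-fold (log2 change 1.41, SE 0.32, edgeR adjusted p = 0.00433). Library 76 was the higher of its day on all 3 days. With the replicate number as a block the other steps passed the test as well, day 2 against day 0 with an adjusted p = 0.000195, against 0.0602 without the block, and day 6 against day 2 with an adjusted p = 0.000705, against 0.106.

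None of the 50-base words of Rpl39l occurs in a transcript of another gene. Its partner Rpl39, which lines the exit tunnel, had 228 and 227 CPM at day 6, against 402 and 366 CPM at day 0. The ratio of Rpl39l to Rpl39 counts averaged 0.0980 ± 0.0370 at day 6, against 0.0215 ± 0.00510 at day 0 (SD), so Rpl39l stayed the minor form.

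Rps4l (chr6:148354656-148355598, plus strand) had 55.8 and 54.3 CPM at day 0, 45.0 CPM in each library of day 2 and 53.5 and 59.0 CPM at day 6. It thus had its lowest level on the day on which most members had their highest. The fall at day 2 against day 0 had a log2 change of −0.29 (SE 0.07, edgeR adjusted p = 0.00685), and the call was lost with library totals alone and without replicate 76 or 77 of day 0 (adjusted p up to 0.202). The rise at day 6 against day 2, 0.32 on the log2 scale, did not pass without replicate 77 of day 0 or with the libraries of both days alone (adjusted p up to 0.0929), and its sign turned to −0.03 with library totals alone. At day 6 against day 0 the log2 change was 0.03 (edgeR adjusted p = 0.716), and with library totals alone it was −0.21 (adjusted p = 0.0468). Rps4x, its X-linked relative, fell 2.37-fold at day 6 against day 2 and 1.90-fold at day 6 against day 0.

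The 3 members below the count filter were Rpl10l, Rpl3l and Rpl24. Rpl10l, a relative of Rpl10 known from the mouse testis, had 0 counts in every library, and a count of 0 allows up to 3 counts, or 0.0993 to 0.150 CPM in these libraries. Rpl3l, the striated muscle relative of Rpl3, had 0 to 7 counts. Rpl24 had 4 and 5 counts at day 0, 2 and 3 counts at day 2 and 6 and 0 counts at day 6. Another gene overlaps 47.0% of the exonic length of Rpl24 and 81.7% of the 50-base words of its reference transcript occur elsewhere. The part these have in its low count was not tested.

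To see which members moved apart from the group, the same fit was run with each library scaled to the summed count of the members. At day 2 against day 0, 9 members were called, 6 above the sum and 3 below it, while 19.1% of all genes were called higher and 46.4% lower on this scale (65.5% in either direction). Leaving out a library gave 3 to 14 calls: 4 without replicate 76 and 3 without replicate 77 of day 0, 3 and 5 without those of day 2, and 14 without either of day 6. For day 6 against day 0, 18 were above and 7 below (63% of all genes were called higher and 14.8% lower, 77.8% in all), with 13 calls without replicate 76 of day 0 and 15 without replicate 77. For day 6 against day 2, 16 were above and 7 below (79.8% of all genes higher and 5.08% lower, 84.9% in all), with 14 calls without replicate 76 of day 2 and 13 without replicate 77.

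Relative to the sum, Rps20, Rpl12 and Rpl13a fell most at day 6 against day 0, by 0.38, 0.37 and 0.33 on the log2 scale. Rpl39l, Rps27l and Rplp2 rose most, with log2 changes of 2.19, 1.40 and 0.87. Rplp2 was also above the sum at day 2 against day 0, with 0.38 (SE 0.12, edgeR adjusted p = 0.0125). At day 6 against day 2, Rplp0, Rps20 and Rps12 fell by 0.56, 0.40 and 0.38 relative to the sum, and Rpl39l, Rps4l and Rps27l rose by 1.73, 1.41 and 0.89.

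**Figure D4:**
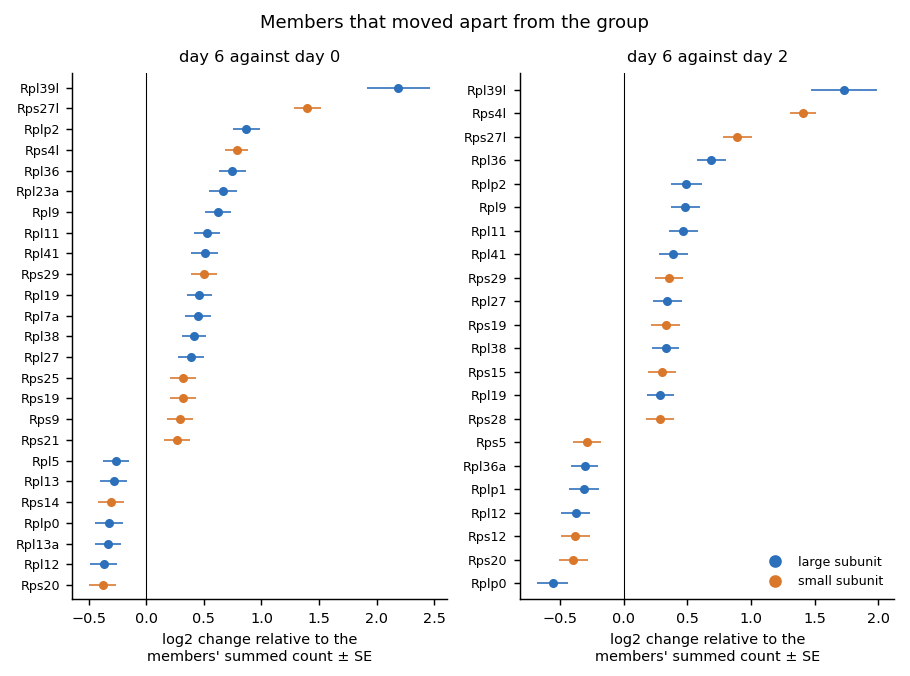
Members called when each library was scaled to the summed count of the ribosomal protein genes, with log2 change ± SE at day 6 against day 0 (left, 25 members) and day 6 against day 2 (right, 22 of 23 members), blue for the large and orange for the small subunit. Rpl39l lies highest in both panels, with 2.19 and 1.73, and Rps20 and Rplp0 lie lowest, with −0.38 and −0.56.

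Several features of the genes could bear on the counts. Across the 78 tested members, Pearson's r of the log2 change at day 6 against day 0 with the log2 CPM at day 0 was −0.75 (Spearman's rho −0.62), and with the length of the reference transcript it was −0.34 (rho −0.42). With the share of 50-base words found elsewhere r was −0.13 (rho 0.03). These are descriptions over genes of the same libraries, and the day 0 level enters both sides of the first. The share of alignments set aside as not unique was 4.42% and 4.16% for day 0, 6.21% and 6.65% for day 2 and 9.05% and 7.50% for day 6. Of the 29 tested members with under 50% of their 50-base words elsewhere, 26 fell and 2 rose at day 6 against day 0, with a median log2 change of −0.76. Over all 81 members the median share of such words was 55.5%, and 50 members had over 50%. Rps12 had 90.1% and Rpl5 had 93.8%. Exons overlapped another gene over more than 20% of their length in 11 members, among them Rpl5 with 26.7%. The 257 annotated pseudogene lines of ribosomal protein genes were a small addition, with a mean share of 0.0111% for day 0, 0.0160% for day 2 and 0.00575% for day 6.

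Markers of cell types changed over the same days. The 10 adipocyte markers rose without exception at day 2 and day 6 against day 0 and summed to 1072 and 1241 CPM at day 0, 11292 and 10374.5 CPM at day 2 and 54201 and 46088 CPM at day 6. The 11 fibroblast progenitor markers summed to 59935 and 52441, 17982 and 19278, and 5560.3 and 8599 CPM in the same order, and 10 of them fell at day 6 against day 0. Of 10 macrophage markers 7 rose at day 6 against day 0. The macrophage markers summed to 53.9 and 46.3, 68.8 and 34.0, and 164 and 64.6 CPM at days 0, 2 and 6. In the same order, 8 endothelial markers summed to 35.9 and 31.1, 6.94 and 6.65, and 12.6 and 16.0 CPM. The sums of 8 mural markers were 1601 and 1555, 73.5 and 72.8, and 381 and 487 CPM. Those of 6 Schwann cell markers were 107 and 147, 15.5 and 21.4, and 8.49 and 10.3 CPM. Those of 7 skeletal muscle markers were 30.0 and 40.5, 10.6 and 3.27, and 11.3 and 10.3 CPM. The endothelial, mural, Schwann cell and muscle sums were thus highest in the day 0 libraries. Of 7 erythroid markers 6 were at 0 in all libraries, and the sum did not pass 0.402 CPM. The part of these shifts in the results on ribosomal protein genes was not tested.

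The mitochondrial ribosome is a separate particle whose proteins are made in the cytoplasm and imported. Its genes rose on both days: of 76 tested, 70 rose and 4 fell at day 2 against day 0, and 73 rose and 1 fell at day 6 against day 0. The median log2 change was 0.80 and 1.51, and it was 0.69 at day 6 against day 2, where 68 rose and 2 fell. The summed level of cytosolic over mitochondrial ribosomal protein genes was 28.1 and 26.7 for day 0, 20.1 for each library of day 2 and 5.25 and 6.35 for day 6, with no overlap between days. Counts called here and in the lists that follow stand beside those of all genes tested. At day 2 against day 0, 33.6% of all genes were called higher and 33.6% lower. At day 6 the shares were 35.9% and 35.1% against day 0, and 38.2% and 27.5% against day 2.

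Of 11 tested genes in a list of ribosomal protein genes that the symbol rule misses or that are paralogs, which shares the tested Rpl39l, Rps4l and Rps27l with the members, 7 rose and 1 fell at day 2 against day 0. At day 6 against day 0, 5 rose and 3 fell, and at day 6 against day 2, 1 rose and 6 fell. Rps3a1, of the small subunit, had 459 and 530.4 CPM at day 6, against 1014 and 1038 CPM at day 2, a fall of 2.07-fold. Rps27rt was called lower at day 6 on 1 and 4 counts, against 14 in each day 0 library. At counts this low no fold is given.

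RNA polymerase I and the factors that make the ribosome's RNA moved in a wave at day 2. Of 15 tested polymerase I genes, 11 rose and none fell at day 2 against day 0, and none rose and 11 fell at day 6 against day 2. Polr1b, the second largest subunit, had 57.2 and 53.3 CPM at day 2, against 14.0 and 15.2 CPM at day 0 (3.79-fold). At day 6 against day 0, 5 rose and 2 fell, with a median log2 change of 0.07.

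Of 53 tested factors of rRNA processing and ribosome assembly, 52 rose at day 2 against day 0, with a median log2 change of 1.10, and 49 fell and 1 rose at day 6 against day 2, with a median of −1.12. Dkc1, the pseudouridine synthase of box H/ACA particles, had 18.1 and 16.3 CPM at day 0, 86.6 and 86.1 CPM at day 2 and 30.0 and 31.1 CPM at day 6. Nop56, of box C/D particles, had 41.1 and 43.5 CPM at day 6, against 192 and 190.3 CPM at day 2, a fall of 4.52-fold. At day 6 against day 0 their median was 0.05, with 19 higher and 12 lower, beside −0.73 for the ribosomal protein genes.

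Elongation factors and other messages known to carry the TOP motif form the next list, which shares Npm1 with the assembly factors and Naca and Btf3 with the nascent chain factors. Of 13 tested, 9 rose and 1 fell at day 2 against day 0, and none rose and 11 fell at day 6 against day 0, with a median of −0.72. Gnb2l1, the small subunit scaffold also called Rack1, had 451 and 516 CPM at day 6, against 1013 and 954 CPM at day 0 (2.03-fold lower). Npm1, a nucleolar chaperone, had 427 and 399 CPM at day 0, 879.6 and 854 CPM at day 2 and 236 and 261 CPM at day 6. Vim, the filament protein vimentin, went the other way at day 2, with 765 and 779.8 CPM, against 1592 and 1494 CPM at day 0.

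Among translation initiation factors, more genes rose than fell at day 6 against day 0, but more fell than rose against day 2. Of 32 tested, 27 rose and 1 fell at day 2 against day 0, while 17 rose and 6 fell at day 6 against day 0, with a median of 0.22. At day 6 against day 2, 4 rose and 22 fell, with a median of −0.35. Eif2b1, a subunit of the exchange factor for eIF2, had 56.6 and 50.7 CPM at day 6, against 28.9 and 23.9 CPM at day 0. Eif4b, a helper of the helicase eIF4A whose message carries a TOP motif in human cells, had 273 and 298 CPM at day 6, against 519 and 497 CPM at day 0, a fall of 1.78-fold.

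**Figure D5:**
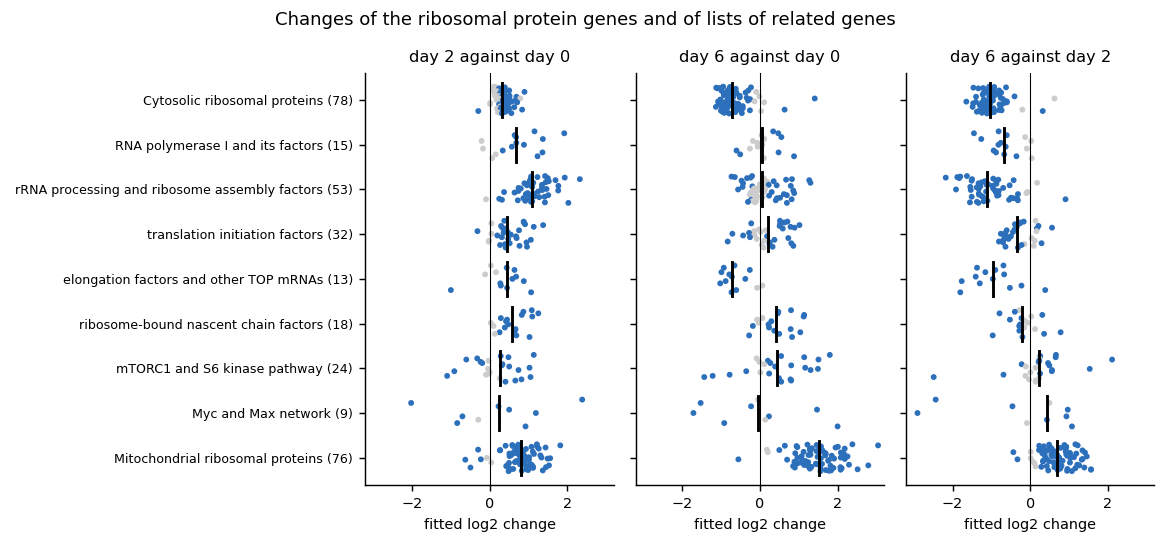
Fitted log2 change of each tested gene in the ribosomal protein group and in 8 lists of related genes, with the number tested in brackets, for the 3 comparisons. Blue dots had an adjusted p under 0.05, grey dots did not, and bars are medians; at day 6 against day 0 the median was −0.73 for cytosolic ribosomal proteins, 0.05 for rRNA processing and assembly factors and 1.51 for mitochondrial ribosomal proteins.

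Genes of the upstream regulators were mixed. Of 24 tested genes of the mTORC1 and S6 kinase pathway, 12 rose and 6 fell at day 2 against day 0, and 16 rose and 4 fell at day 6 against day 0. Those called in either direction were 18 and 20 of the 24, beside 67.1% and 70.9% of all genes. Mtor, the kinase itself, had 48.5 and 49.0 CPM at day 0, 108 and 106 CPM at day 2 and 182 and 158 CPM at day 6. Ddit4, an inhibitor of mTORC1 induced by glucocorticoids and stress, had 70.2 and 65.1 CPM at day 6, against 385 and 374 CPM at day 2, and Deptor, another inhibitor, had 73.7 and 76.2 CPM at day 6, against 16.7 and 18.1 CPM at day 2. These are levels of RNA and say nothing of the kinase's activity.

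Of 9 tested genes of the Myc and Max network, 5 rose and 3 fell at day 2 against day 0, and 3 rose and 4 fell at day 6 against day 0. Those called in either direction were 8 and 7 of the 9, beside 67.1% and 70.9% of all genes. Myc had 29.3 and 28.8 CPM at day 0, 161 and 142 CPM at day 2 and 28.0 and 28.1 CPM at day 6. It was thus higher at day 2 than on the other days (5.23-fold against day 0), and its day 6 level was not called different from day 0 (log2 change −0.05, SE 0.08, edgeR adjusted p = 0.607).

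Of 18 tested factors that act on nascent chains at the ribosome, 15 rose and none fell at day 2 against day 0, and 13 rose and 2 fell at day 6 against day 0. At day 6 against day 2, 3 of them rose and 9 fell. Naa10, the acetyltransferase subunit in the title of the series and named here for that reason, had 16.1 and 13.7 CPM at day 2, against 7.42 and 6.59 CPM at day 0 (2.12-fold, edgeR adjusted p = 0.000175), and 13.1 and 11.3 CPM at day 6. Of 10 tested chaperones of ribosomal proteins and genes of p53 surveillance, 7 rose and 1 fell at day 2, and 6 rose and 3 fell at day 6, both against day 0. At day 6 against day 2, 2 of these rose and 6 fell. Grwd1, a chaperone of Rpl3, had 53.3 and 48.1 CPM at day 2, against 16.1 and 16.8 CPM at day 0. Trp53, the gene of p53, had 32.4 and 38.8 CPM at day 6, against 78.8 and 74.8 CPM at day 0, a fall of 2.16-fold.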

How the data were processed

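The authors deposited raw read counts per gene and library. The column names say RPKM, but the values are whole numbers with HTSeq's 5 summary lines at the end. Per the submitters' processing notes, TopHat2 2.0.13 and HTSeq 0.9.1 were used with mm10 and GRCm38. Which annotation and strand setting HTSeq was given is not stated there. Library sizes leave out the summary lines: 2.62% to 3.23% of alignments had no feature, 4.40% to 4.91% were ambiguous and 4.16% to 9.05% were not unique.

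All 6 libraries entered 1 fit in edgeR 4.0.16 (R 4.3.3): TMM scaling, filterByExpr (14459 genes kept, 31349 not tested), a mean per day, 3 residual degrees of freedom, Benjamini-Hochberg adjustment over all genes tested and a threshold of 0.05. Fold changes and SE are from this fit. The fit against the members' sum replaced TMM by the summed member count. The common biological coefficient of variation was 0.0830. Reference transcripts and 50-base words came from GENCODE M21 (GRCm38), in which all 81 symbols matched, and promoter windows from RefSeq (GRCm38.p6). DESeq2 1.42.0 was an alternative, with others given in the closing section.

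On simulated counts with 200 changed genes, the steps recovered 44.8% of 1.5-fold, 86.6% of 2-fold and 95.5% of 4-fold changes for day 2 against day 0 (14097 genes, 4.43% of calls false). For day 6 against day 0 they recovered 71.6%, 80.6% and 95.5% (14104 genes, 5.71% false). For day 6 against day 2 they recovered 62.7%, 83.6% and 95.5% (14098 genes, 3.59% false). In the real libraries 67.1%, 70.9% and 65.7% of genes were called in the same order of comparisons. The steps were not tested with so many changed genes, so these shares hold for the simulated counts only. Each fold had 66 or 67 changed genes per comparison, and whether recovery differed between comparisons was not tested.

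Libraries 76 and 77 of a day are biological replicates per the labels, and their counts differed by more than sampling noise (chi-square per degree of freedom 6.75, 7.53 and 26.3 at days 0, 2 and 6). The labels name no separate mouse or culture for each, so p-values measure only the spread between such libraries, which may be technical. PCR copies were not told apart by molecular identifiers, so limits from counts cover counting error only. Deviations of same-numbered libraries from their day means correlated across genes at r = 0.109 (days 0 and 2), 0.112 (days 0 and 6) and 0.213 (days 2 and 6), all above the limit of 0.1 on Pearson's r, while Spearman's rho was 0.0589, 0.0546 and 0.176. Over the 78 tested members alone r was higher, at 0.619, 0.689 and 0.731 in the same order. By the limit on r 76 and 77 pair across days, although the labels do not say what the numbers stand for. The main fit left this pairing out, and the replicate block was run as an alternative.

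The members, the lists of related genes and the alternatives were chosen with earlier results of these data known. Named members are the 5 largest called changes each way per comparison, the 3 largest each way against the members' sum, the 5 highest per length at day 0, the paralogs, those below the filter and the 2 largest called changes per list, of which a selection is printed. Others are marked in the text, and some genes are not reported here. The permutation test of the shares was exact and two-sided.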

Additional observations from a re-analysis of the deposited data

How the results depend on the processing

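Libraries held 22522221 to 29458374 counts, 3 members were below the count filter, and the precision is limited by 2 libraries a day. Under every alternative fit (other size factors, library totals, DESeq2, no filter, the replicate block, the libraries of both days, each library left out), 30 members stayed called higher at day 2 against day 0, 66 lower and 2 higher at day 6 against day 0 and 75 lower at day 6 against day 2. Members called numbered 31 to 72, 68 to 73 and 76 to 77 with 1 library left out in those comparisons, and 60, 73 and 78 once the replicate number entered as a block. Counts against the members' sum ran over 3 to 14, 13 to 30 and 13 to 24 with 1 library left out, and day 2 against day 0 gave 14 with the libraries of both days alone. Chosen after seeing the data, a limit to members with under 50% of reference-transcript words elsewhere left 22, 28 and 27 calls of 29 tested, and a demand for more than 1.5-fold left 6, 57 and 74. The share of all genes past 1.5-fold was not counted.

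The members' median log2 changes were 0.30 to 0.44, −0.78 to −0.68 and −1.17 to −0.99 with 1 library left out, 0.44, −0.98 and −1.39 with library totals alone, and −1.17 for day 6 against day 2 with the libraries of both days alone. Without replicate 77 of day 0 the median of all genes moved as well, to 0.14 at day 2 against day 0. The share of counts was 4.47% to 4.65%, 5.99% to 6.41% and 2.14% to 2.42% by single library at days 0, 2 and 6, and 3.79%, 5.10% and 1.95% without the 5 most abundant members. Small changes turned sign: Rplp2 (−0.14) and Rps4l (−0.21) at day 6 against day 0 and Rps4l (−0.034) at day 6 against day 2 with library totals alone, Rps4l at day 6 against day 0 with DESeq2 (−0.00013) and without replicate 77 of day 6 (−0.030, in a range up to 0.11 with 1 library left out), Rpl23a at day 6 against day 0 without replicate 76 of day 0 (0.0029, down to −0.17), and Rps14 (−0.037, up to 0.13) at day 2 against day 0 without replicate 76 of day 2. The causes were not tested. Of all alternatives for the named members, 523 kept direction and side of the threshold, 27 gained the call, 19 lost it and 7 turned sign. The block changed the call of Rpl13a and Rpl39 at day 2 against day 0 (adjusted p = 0.0539 and 0.041 by edgeR), of Rpl39l and Rps27l as given in the report, and against the members' sum of Rpl39l, Rpl5 and Rps21 (adjusted p = 0.0056, 0.0569 and 0.0503), and no other member's call.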
